A study of Rattus norvegicus with 24 samples.

Results

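Lithium was compared with the control diet in the renal cortex of male Wistar rats, on 6 arrays from lithium-treated animals and 6 from controls. Lithium-treated rats had received 40 mmol lithium per kg of food for 7 days and 60 mmol per kg thereafter, over 6 months in all, with a salt block. Control rats had received a standard rodent diet over the same time. The salt block is described for the lithium-treated rats only, so changes called those of lithium cannot be told apart from those of the block. Each array carried RNA from a piece of cortex of 1 animal, and the medulla of the same animals was measured on 12 further arrays. The comparison covers every transcript cluster, the array's unit for 1 transcript, whose log2 signal intensity reached 6 on 4 or more of the 12 cortex arrays. This held for 13766 of 28894 clusters and for 8300 of the 14328 genes that could be named.

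Lithium enters the principal cells of the collecting duct through the epithelial sodium channel, and long treatment is known to impair urinary concentration and to remodel the distal nephron and collecting duct. Principal cells take up water through aquaporins under the control of vasopressin, and sodium under the control of aldosterone. Intercalated cells, between them, move acid and base. Proximal tubules make up most of the cortex, so that changes in the duct are measured against a large background of other epithelium.

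The labelled tissue was checked against marker genes. Slc34a1, the main phosphate transporter of the proximal tubule, lay between 11.7 and 12.2 on the log2 scale over the 11 arrays used, and Lrp2, the endocytic receptor megalin, between 11.03 and 11.52. Array medians lay between 5.75 and 5.83. The array of lithium animal 17 equals the mean of its group and adds no spread, and it is alone in its scan group (arrays that share a scan date, read back from the values), which is a term of the fit, so that the comparison rests on n = 5 lithium and n = 6 control arrays. The array of lithium animal 19 stood apart, with 256 clusters more than 1 log2 unit above the mean of the other arrays of its diet, where the other 10 arrays had between 2 and 36. Among clusters past the filter, the largest excess was that of Thrsp, a regulator of fat synthesis, and values without that array are given beside the gene groups that move with it. Fold changes below are differences of log2 means, lithium minus control, with standard errors and adjusted p-values from limma with scan groups in the fit and Benjamini-Hochberg adjustment over all 13766 clusters.

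At an adjusted p under 0.05, 64 clusters were higher and 15 lower in lithium-treated cortex, together 0.574% of those tested. They stand for 72 named genes, 58 of them higher and 14 lower, and 6 clusters had no gene symbol. At an unadjusted p under 0.05 there were 676 higher and 362 lower clusters. Changes of at least 2-fold made up 27 of the higher and 11 of the lower clusters. The smallest called change was 0.48 on the log2 scale. With a median standard error of 0.116 over all clusters, smaller changes were unlikely to be called. For 19 of the higher clusters the control mean lay under the filter value of 6, where a level was not shown to be above background. The lithium and control arrays did not overlap in 78 of the 79 called clusters, the exception being Scnn1b, against 2.57% of all clusters tested. All 79 changed in the same direction within each of the 3 scan groups that held both diets, which held for 25.4% of all clusters. Both counts come from the arrays that gave the calls, so they follow in part from the selection and are no separate support. Without scan groups in the fit, 207 clusters (1.5% of those tested) were higher and 81 lower, 2.09% together, and all 79 were among them. The authors had already taken scan date out of the values. That fit therefore counts degrees of freedom already used up, and its keeping all 79 is no support. Leaving out 1 array at a time, 32 of the 79 remained called every time, and another 32 were called in under 6 of the 12 fits. The median change over all clusters was 0.010. Of the 8300 named genes, 4570 had positive and 3730 negative changes, the base for the counts of signs below. At an unadjusted p under 0.05, 417 of the named genes were higher and 224 lower. Without scan groups, 160 were called higher and 58 lower. These are the base for such counts in the lists below.

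**Figure D1:**
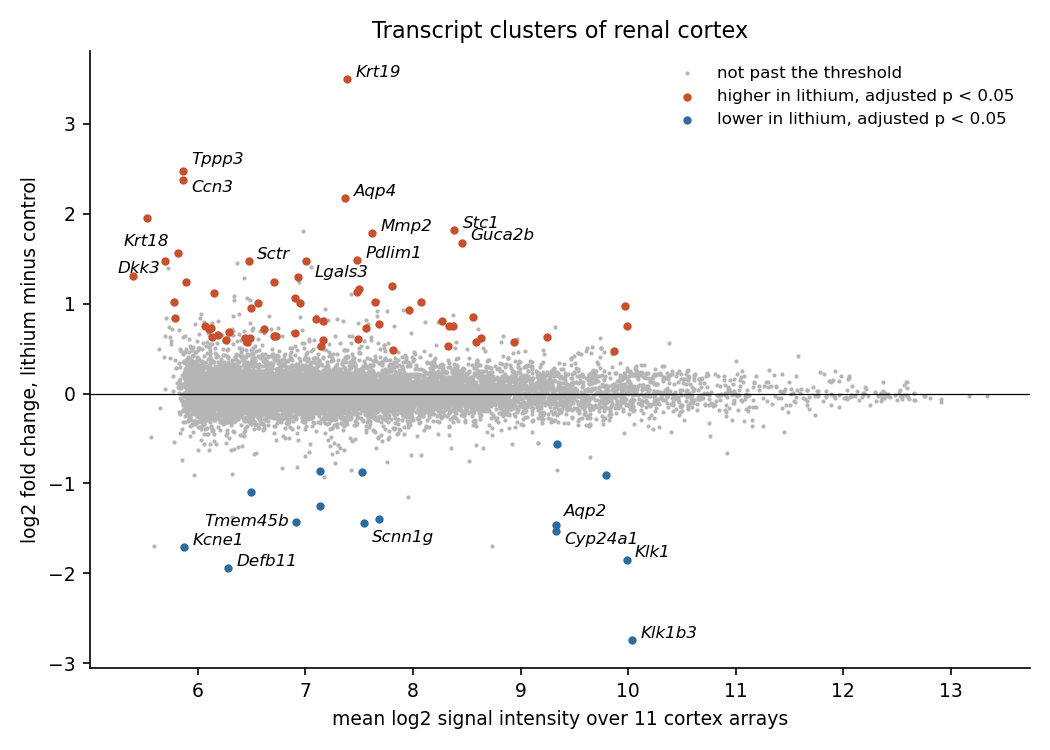
Log2 fold change (lithium minus control) against the mean log2 signal intensity over 11 cortex arrays for each of 13766 transcript clusters. The 64 clusters called higher are orange, the 15 called lower are blue and all others grey; Krt19 at 3.50 and Klk1b3 at -2.74 lie farthest from 0, and most called genes lie at low or middle levels.

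Genes on the principal cell list changed in both directions. Of 23 genes on the list of principal cell and water handling genes that passed the filter, 5 were lower and 2 higher, where 0.169% and 0.687% of all named genes were called lower and higher. The gene lists here and below were chosen with earlier results of these data known, so an excess over that share is no independent support. In bulk cortex, fewer cells of a type and less RNA per cell cannot be told apart. Aqp2, the vasopressin-regulated water channel of the apical membrane, had a lowest, median and highest control value of 9.62, 10.02 and 10.55. On the arrays of lithium animals 6, 18, 19, 21 and 22, the order kept for every gene below, it was 8.78, 8.29, 8.21, 8.49 and 8.89. Every lithium value lay below every control value (log2 fold change -1.46, standard error 0.189, adjusted p = 0.00391). Aqp4, a basolateral water channel of the same cells, went the other way, with 5.86, 6.32 and 7.06 in controls and 8.90, 8.91, 7.50, 8.52 and 8.94 under lithium. The array of animal 19 lay well below the other 4 and still exceeded all controls (log2 fold change 2.17, standard error 0.284, adjusted p = 0.00402).

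The promoter of Aqp2, the 250 bases before the start given by RefSeq (GRCr8, chr7:132590036-132590285, plus strand), is shown because cAMP signalling below the vasopressin receptor is the textbook control of this gene. TGACGT, the core of a cAMP response element, was searched on both strands and is found once, on the other strand, from 227 bases before the start. It is in capitals as it reads on the printed strand, and 6.95% of 33469 RefSeq promoters of this length hold it on either strand.
Aqp2: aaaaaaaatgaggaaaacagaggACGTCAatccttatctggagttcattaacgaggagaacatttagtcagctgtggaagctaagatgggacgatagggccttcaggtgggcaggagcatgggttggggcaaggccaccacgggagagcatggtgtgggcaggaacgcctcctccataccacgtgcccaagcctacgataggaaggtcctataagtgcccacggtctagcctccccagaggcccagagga

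Sodium channel genes fell. Scnn1g, the gamma subunit of the epithelial sodium channel, read 7.34, 8.27 and 8.60 in controls and 7.32, 6.74, 6.37, 6.59 and 6.79 under lithium. Control animal 1 lay close to the highest lithium array, and the other 5 controls lay well above (log2 fold change -1.44, standard error 0.231, adjusted p = 0.0190). Scnn1b, the beta subunit, was 7.47, 7.94 and 8.22 in controls and 7.49, 6.76, 7.01, 6.77 and 7.21 under lithium, and the highest lithium array lay just above the lowest control (log2 fold change -0.87, standard error 0.167, adjusted p = 0.0443). The alpha subunit gene Scnn1a did not pass the test (-0.33, adjusted p = 0.71). Hsd11b2, which inactivates glucocorticoids in aldosterone target cells, was 9.93, 10.27 and 10.41 in controls and 9.42, 9.32, 8.95, 9.23 and 9.56 under lithium (log2 fold change -0.90, standard error 0.135, adjusted p = 0.0114). Kcne1, the accessory potassium channel subunit minK, had the tightest controls of these genes, 6.54, 6.65 and 6.78, against 5.09, 5.31, 4.57, 4.99 and 4.78 under lithium (log2 fold change -1.70, standard error 0.131, adjusted p = 0.000125). Its lithium mean lay under 6. Kcne1 was counted on the principal cell list, although its control mean in medulla was 4.32, where that of Aqp2 was 12.12. In contrast Kcnk1, a 2-pore potassium channel, rose by 0.72 (adjusted p = 0.0486). The median over the 23 genes was -0.21, against 0.018 over all named genes. Without animal 19, 4 were lower and 1 higher, since Scnn1b (adjusted p = 0.0704) and Kcnk1 (0.0574) no longer passed.

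Tissue kallikreins showed the largest fall. Klk1 encodes the serine protease of the connecting tubule that releases kinins from kininogen, and Klk1b3 a close paralog. Klk1b3 was 10.59, 11.33 and 11.69 in controls and 9.01, 8.74, 7.56, 8.49 and 8.90 under lithium (log2 fold change -2.74, standard error 0.279, adjusted p = 0.00103), a 6.67-fold drop. For Klk1 the controls were 10.23, 10.96 and 11.29 and the lithium arrays 9.30, 9.28, 7.95, 8.91 and 9.46 (log2 fold change -1.85, standard error 0.287, adjusted p = 0.0145). Animal 19 was the lowest lithium array in both, and without it the changes were -2.46 and -1.55, both called. Another kallikrein, Klk1c9, had a change of -1.70 that just missed the threshold (adjusted p = 0.0554). Rat kallikreins are close paralogs, and probes may not separate them fully. Their promoters are printed because the genes fell together. The 250 bases before each RefSeq start (GRCr8, plus strand) are at chr1:103778902-103779151 for Klk1 and chr1:103845397-103845646 for Klk1b3. Capitals mark runs of at least 12 bases that occur in both, the longest of 24 bases, which take up 82 bases of the first and 81 of the second. The last capital stretch of each holds a pair of such runs that abut in Klk1 and share 1 base in Klk1b3, so that the whole stretch differs between them.
Klk1: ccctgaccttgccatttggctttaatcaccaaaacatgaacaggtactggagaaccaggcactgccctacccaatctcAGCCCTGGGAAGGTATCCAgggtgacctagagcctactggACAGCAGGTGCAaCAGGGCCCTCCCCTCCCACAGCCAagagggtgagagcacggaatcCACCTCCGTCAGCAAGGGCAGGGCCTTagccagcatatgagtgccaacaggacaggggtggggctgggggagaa
Klk1b3: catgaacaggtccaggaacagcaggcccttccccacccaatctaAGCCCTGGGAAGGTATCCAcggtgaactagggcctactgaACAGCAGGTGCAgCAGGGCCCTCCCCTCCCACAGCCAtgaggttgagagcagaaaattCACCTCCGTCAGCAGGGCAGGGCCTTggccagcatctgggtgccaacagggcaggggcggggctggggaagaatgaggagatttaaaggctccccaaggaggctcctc

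Cyp24a1 and Slc8a1 were also lower. Cyp24a1, the enzyme that breaks down active vitamin D, was 9.47, 10.12 and 10.36 in controls and 7.99, 8.35, 8.46, 8.37 and 9.31 under lithium (log2 fold change -1.53, standard error 0.227, adjusted p = 0.0110). Animal 22 lay above the other lithium arrays, yet below all controls. Slc8a1, the sodium-calcium exchanger of the basolateral membrane, was 7.43, 8.42 and 8.74 in controls and 7.39, 6.67, 6.81, 6.51 and 7.25 under lithium (log2 fold change -1.40, standard error 0.240, adjusted p = 0.0270), with control animal 1 just above the highest lithium array. The call remained in 4 of the 12 fits that left out an array, and that of Scnn1g in 6. Slc8a1 was the only called gene among 20 markers of thick ascending limb and distal convoluted tubule, although 18 of the 20 had negative changes, 4 were called lower without scan groups, and the median was -0.32. Calb1, the calcium-binding calbindin of the distal tubule, had a change of -1.70 without passing the test (adjusted p = 0.130). Trpv5, the apical calcium channel of the distal tubule, had 0.38 (adjusted p = 0.567) and Atp2b4, a plasma membrane calcium pump, 0.22 (adjusted p = 0.789). Umod, uromodulin of the thick ascending limb, had -0.66, adjusted p = 0.605. Without animal 19, whose array had the lowest mean of these markers, Slc8a1 remained called, 15 of the 20 were negative and the median was -0.17. Over all named genes, 3730 of 8300 changes were negative with that array included.

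The defensin genes Defb11 and Defb9, which encode small antimicrobial peptides and belong to none of the gene lists, were lower. Defb11 was 6.59, 7.26 and 7.61 in controls and 5.77, 4.95, 4.92, 5.18 and 5.32 under lithium (log2 fold change -1.94, standard error 0.223, adjusted p = 0.00180), with a lithium mean under 6. Defb9 was 6.60, 7.04 and 7.38 in controls and 6.15, 5.52, 5.78, 6.10 and 5.95 under lithium (log2 fold change -1.09, standard error 0.161, adjusted p = 0.0105). The lithium mean of Defb9, 5.90, also lay under 6. In both genes, all lithium arrays lay below all controls. Pigr, the receptor that carries IgA across epithelia, rose by 0.75 (adjusted p = 0.0302). It was the single call among the 19 genes of a list of complement, coagulation and antimicrobial genes, which does not hold the defensins above. The remaining genes that fell were Tmem45b, a membrane protein (log2 fold change -1.42, standard error 0.152, adjusted p = 0.00137), Prima1, which anchors acetylcholinesterase at the cell surface (log2 fold change -1.25, standard error 0.170, adjusted p = 0.00543), and Nabp1, which binds single-stranded DNA (log2 fold change -0.56, standard error 0.107, adjusted p = 0.0438). Tmem45b read 7.28, 7.56 and 7.77 in controls and 6.39, 5.63, 6.45, 6.10 and 6.12 under lithium. Prima1 read 7.46, 7.63 and 8.06 and 6.67, 6.44, 5.88, 6.64 and 6.62, and for Nabp1 the values were 9.37, 9.58 and 9.77 and 9.21, 9.13, 8.99, 8.89 and 8.94. These 3 genes had no overlap between the diets, but the fall of Nabp1 was the smallest of the 15 and was lost in 10 of the 12 fits that left out an array.

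**Figure D2:**
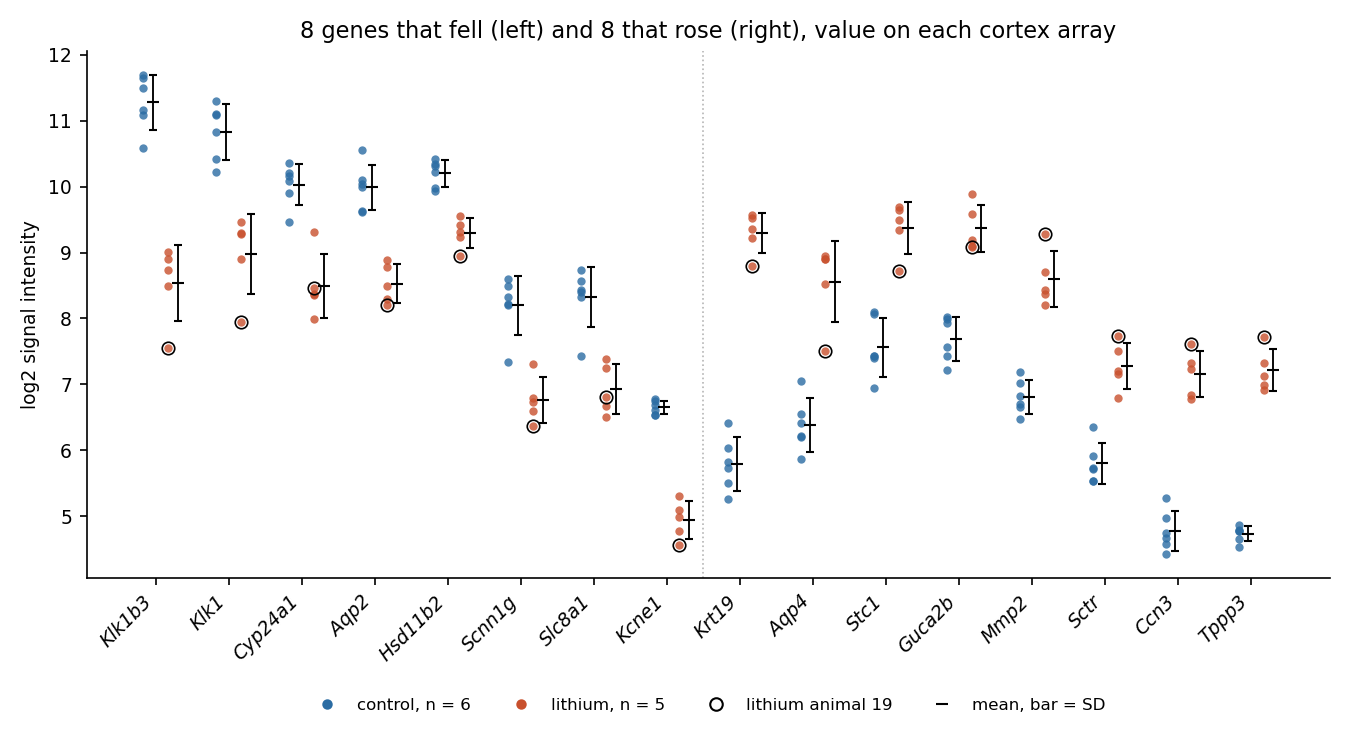
Log2 signal intensity on each cortex array for 8 genes called lower (left) and 8 called higher (right), with 6 control arrays in blue and 5 lithium arrays in orange; black bars give the mean and SD. The diets do not overlap in any of these genes, and the circled array of lithium animal 19 is often the lowest or highest of its group, as for Klk1b3 at 7.56 and Mmp2 at 9.28.

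Secreted peptides and hormones were among the genes that rose. Guca2b and Guca2a encode uroguanylin and guanylin, peptides that raise cyclic GMP in epithelia and favour salt loss in the urine. Guca2b was 7.21, 7.74 and 8.02 in controls and 9.20, 9.09, 9.08, 9.58 and 9.89 under lithium (log2 fold change 1.68, standard error 0.200, adjusted p = 0.00203). Guca2a rose from 5.81, 6.12 and 6.38 to 7.42, 7.43, 7.15, 7.15 and 7.77 (log2 fold change 1.24, standard error 0.141, adjusted p = 0.00176). Stc1, stanniocalcin, a hormone of calcium and phosphate balance made in the collecting duct, was 6.94, 7.42 and 8.10 in controls and 9.49, 9.65, 8.71, 9.34 and 9.68 under lithium (log2 fold change 1.81, standard error 0.239, adjusted p = 0.00418). All 3 rises were clear of the control range on every array and were called in each fit that left out an array. Of 21 genes on the list of peptide hormones, kallikreins and renin-angiotensin genes, these 3 were higher and both kallikreins lower.

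The 2 guanylin genes lie next to each other in RefSeq order and rose together, so the 250 bases before each start are shown (GRCr8, chr5:138522196-138522445, plus strand, and chr5:138534211-138534460, minus strand). The longest run the pair share, in capitals, is 9 bases, in contrast to the 24 of the kallikreins.
Guca2a: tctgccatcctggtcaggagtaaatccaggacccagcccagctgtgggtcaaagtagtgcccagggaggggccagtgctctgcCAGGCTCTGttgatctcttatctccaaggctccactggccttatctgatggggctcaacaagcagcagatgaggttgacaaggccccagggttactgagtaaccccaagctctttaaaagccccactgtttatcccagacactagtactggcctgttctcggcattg
Guca2b: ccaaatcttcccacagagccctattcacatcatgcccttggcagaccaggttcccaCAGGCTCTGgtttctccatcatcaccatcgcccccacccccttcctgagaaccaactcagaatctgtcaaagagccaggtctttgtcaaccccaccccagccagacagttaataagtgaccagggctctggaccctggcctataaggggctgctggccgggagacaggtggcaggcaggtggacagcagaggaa

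Further secreted regulators rose. Ccn3, a matricellular protein formerly called NOV, was 4.43, 4.71 and 5.28 in controls and 7.32, 6.84, 7.62, 6.77 and 7.24 under lithium (log2 fold change 2.37, standard error 0.189, adjusted p = 0.000125). Of the 6 genes of its list past the filter it alone was called, while its relative Ccn1 had 0.10, adjusted p = 0.890. Dkk3, a secreted member of the Dickkopf family, was 4.80, 4.97 and 5.31 in controls and 6.27, 6.51, 6.86, 6.39 and 6.49 under lithium (log2 fold change 1.48, standard error 0.133, adjusted p = 0.000366). It was the only call among 24 Wnt and beta-catenin genes. Sfrp2, a secreted Wnt antagonist on that list, had -1.15, adjusted p = 0.352, and was called lower without animal 19 (-1.49, adjusted p = 0.0182). Gdf15, a stress-induced cytokine of the TGF-beta superfamily, rose by 0.81 (adjusted p = 0.0262), 1 call among 37 genes of TGF-beta and BMP signalling. Nbl1, a secreted BMP antagonist, rose by 0.77 (adjusted p = 0.0270). The control means of Ccn3 and Dkk3 lay under 6.

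Receptors for several ligands rose. Sctr, the receptor for secretin, was 5.53, 5.73 and 6.36 in controls and 6.80, 7.16, 7.73, 7.20 and 7.50 under lithium (log2 fold change 1.48, standard error 0.192, adjusted p = 0.00391). Gabrp, the pi subunit of the GABA-A receptor, was 5.98, 6.40 and 6.63 and 7.76, 7.67, 7.91, 7.20 and 7.64 (log2 fold change 1.29, standard error 0.161, adjusted p = 0.00311). Grik2, a kainate-type glutamate receptor subunit, had controls of 4.62, 4.82 and 4.94 and lithium values of 6.37, 5.99, 6.10, 5.97 and 6.12 (log2 fold change 1.31, standard error 0.102, adjusted p = 0.000125). The 3 receptors did not overlap between the diets on any array, though Grik2 and Sctr had control means under 6. Fgfr2, a receptor for fibroblast growth factors, rose by 0.72 (adjusted p = 0.0266) and was the single call among 35 growth factors and receptors. Adgrf5, an adhesion G protein-coupled receptor, rose by 0.63 (adjusted p = 0.0403).

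Keratins and genes of epithelial injury and repair made up the largest called group. On the list of injury and repair genes, 8 of 23 were higher and none lower, with a median change of 0.72 and 22 of 23 positive. Of all named genes, 0.687% were called higher and 0.169% lower, 4570 of 8300 were positive, and the median was 0.018. The list was chosen with earlier results of these data known, so its excess is no independent support. Krt19, a simple-epithelium keratin of ducts, had the largest change of any cluster, from 5.26, 5.78 and 6.42 in controls to 9.57, 9.22, 8.80, 9.36 and 9.53 under lithium (log2 fold change 3.50, standard error 0.211, adjusted p = 1.42e-05). The lowest lithium array stood more than 2 log2 units above the highest control, though the control mean of 5.80 lay under 6. Krt8 rose from 8.01, 8.18 and 8.33 to 9.03, 9.16, 8.97, 8.94 and 8.99 (log2 fold change 0.85, standard error 0.0964, adjusted p = 0.00176), and the second cluster of Krt8 by 0.76. Of its partner Krt18, 1 cluster rose, from 4.65, 5.04 and 5.60 to 6.43, 6.98, 6.47, 6.83 and 6.65 (log2 fold change 1.57, standard error 0.182, adjusted p = 0.00181). The other Krt18 cluster, with the higher mean, did not pass the test (0.33, adjusted p = 0.760), so that the 2 clusters of this gene disagree. The control means of both Krt18 clusters lay under 6. Ppl, the desmosome-associated periplakin, rose by 0.72 (adjusted p = 0.0270).

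Other injury genes were Cd44, the hyaluronan receptor, at 5.16, 5.26 and 5.64 in controls and 6.40, 6.32, 7.12, 6.54 and 6.43 under lithium (log2 fold change 1.24, standard error 0.158, adjusted p = 0.00352), and Cdkn1a, the cell cycle inhibitor p21. The control mean of Cd44, 5.33, lay under 6. Cdkn1a read 6.73, 6.96 and 7.24 in controls and 8.14, 8.17, 8.02, 7.78 and 8.37 under lithium (log2 fold change 1.13, standard error 0.125, adjusted p = 0.00165). It was 1 of 2 calls, with Gdf15, among 25 immediate early and p53 response genes, and none of 12 cell cycle and proliferation genes was called by limma, with 2 higher at an unadjusted p under 0.05 and Ccnd2 at 0.57, adjusted p = 0.474. Lcn2, a secreted marker of tubular damage, had a change of 1.06 (adjusted p = 0.666), and 0.45 without animal 19. Without that animal the injury list kept 8 calls, a median of 0.45 and 20 of 23 positive.

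Calcium- and sugar-binding proteins rose with the keratins. Of 19 annexin, S100 and galectin genes, 4 were higher and none lower, 3 of which (Lgals3, Anxa2 and S100a11) are also on the injury list. Lgals3, galectin-3, was 6.03, 6.40 and 6.55 in controls and 7.54, 7.52, 8.55, 7.68 and 7.76 under lithium (log2 fold change 1.48, standard error 0.185, adjusted p = 0.00320). Anxa2 was 7.05, 7.25 and 7.51 and 8.41, 7.92, 9.31, 8.11 and 8.54 (log2 fold change 1.20, standard error 0.221, adjusted p = 0.0389). Animal 19 was the highest lithium array for both, and without it the changes were 1.26 and 0.96, still called. Over the 12 fits that left out an array, Lgals3 was called in all and Anxa2 in 3. Anxa5, the phosphatidylserine-binding annexin, rose by 1.02 (adjusted p = 0.0136) and S100a11 by 0.97 (adjusted p = 0.0306). Without animal 19 the rise of S100a11 was 0.80. Another cluster of S100a11 was called only without that animal (0.48, adjusted p = 0.0440). S100a10, the partner of Anxa2, had 0.92, adjusted p = 0.263.

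Several of the strongest rises were of cytoskeletal genes. Tppp3, which binds and bundles microtubules, was 4.54, 4.78 and 4.87 in controls and 7.13, 6.99, 7.72, 6.92 and 7.33 under lithium (log2 fold change 2.48, standard error 0.144, adjusted p = 1.42e-05). Its controls spanned little more than 0.3 log2 units, at a mean of 4.74. Tubb2b, a beta-tubulin, rose from 5.55, 5.62 and 5.77 to 6.60, 6.76, 6.90, 6.48 and 7.03 (log2 fold change 1.11, standard error 0.112, adjusted p = 0.00101). Tppp3 and Tubb2b, whose control means both lay under 6, were the 2 calls among 18 genes of microtubules, cilia and centrosomes. On that list Tppp had 1.03, adjusted p = 0.155 and Tuba1a 0.91, adjusted p = 0.0965. Pdlim1, an actin-associated PDZ and LIM protein, was 6.56, 6.71 and 7.40 in controls and 7.85, 7.99, 8.88, 8.34 and 8.39 under lithium (log2 fold change 1.48, standard error 0.203, adjusted p = 0.00562). Smaller rises were those of Crip1, a LIM protein (1.06), Tagln2, an actin-binding transgelin (0.58), Dstn, the actin-severing destrin (0.48), and Myzap, a protein of cell junctions (0.65). Tagln, the smooth muscle relative of Tagln2, had 1.03, adjusted p = 0.451, and 0.65 without animal 19.

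Genes of cell contact, adhesion and pericellular proteolysis were next. Mmp2, the secreted gelatinase, was 6.47, 6.77 and 7.18 in controls and 8.21, 8.36, 9.28, 8.43 and 8.70 under lithium (log2 fold change 1.79, standard error 0.199, adjusted p = 0.00165). It was the only call among 28 metzincins, TIMPs and plasminogen system genes, where Timp1 had 0.72, adjusted p = 0.793. St14, the membrane protease matriptase, rose by 0.59 and Bace2, an aspartyl protease, by 0.75. Claudins of tight junctions rose, Cldn4 by 1.17 (adjusted p = 0.0270) and Cldn7 by 1.00 (adjusted p = 0.0266), of 22 tight junction and polarity genes. Itgb6, an epithelial integrin that activates latent TGF-beta, rose by 0.62 (adjusted p = 0.0389), and Itgb4, another epithelial integrin, had 1.04, adjusted p = 0.0775. Alcam, a cell adhesion molecule, rose by 0.83 (adjusted p = 0.0211), and Tspan1, a tetraspanin, by 0.95 (adjusted p = 0.0220).

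Interstitial matrix genes were not called. None of 22 collagen and extracellular matrix genes passed the test by limma, 18 had positive changes, and the median was 0.22. At an unadjusted p under 0.05, 1 gene was higher and none lower, and without scan groups none was called. Fn1, fibronectin, had 0.82, adjusted p = 0.631 and Dcn, decorin, 0.74, adjusted p = 0.704. Without animal 19 the median of the list was -0.039, with Fn1 at 0.39. P4ha1, an enzyme that hydroxylates collagen prolines, rose by 0.48 (adjusted p = 0.0356), the single call among 31 glycolysis and hypoxia genes. Of 37 TGF-beta and BMP genes, Tgfb2 had 0.54, adjusted p = 0.0786 and Bmp3 0.89, adjusted p = 0.234.

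Regulators of transcription and cell state were few. Elf3, an epithelial ETS factor, was 6.00, 6.09 and 6.26 in controls and 7.05, 6.86, 7.45, 7.02 and 7.15 under lithium (log2 fold change 1.00, standard error 0.112, adjusted p = 0.00165). Dmrt2, a factor of intercalated cells, rose by 0.68 (adjusted p = 0.0403). These were the 2 calls among 24 transcription factors of the collecting duct and distal nephron. Over the 12 fits that left out an array, Elf3 was called in all and Dmrt2 in 2. Lbh, a transcriptional cofactor, rose by 0.58, and Trim16, a ubiquitin ligase, by 0.59. On the intercalated cell list, Dmrt2 was higher and Slc8a1 lower of 20 genes. The fall of Slc8a1 is the call already counted above among markers of thick ascending limb and distal convoluted tubule. The median of the intercalated cell list was 0.078, and 0.28 without animal 19, when Kit, a receptor tyrosine kinase on that list, was also called (0.83, adjusted p = 0.00830).

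Metabolic genes that rose were scattered over pathways. Scd2, a stearoyl-CoA desaturase, was 7.18, 7.69 and 7.93 in controls and 8.87, 8.57, 8.29, 8.65 and 8.78 under lithium (log2 fold change 1.02, standard error 0.155, adjusted p = 0.0130), and was the only call among 20 genes of cholesterol and lipid synthesis. Slc25a24, a mitochondrial carrier of ATP-Mg and phosphate, was 5.02, 5.21 and 5.89 and 6.24, 6.37, 6.72, 6.23 and 6.11 (log2 fold change 1.02, standard error 0.171, adjusted p = 0.0251). Its control mean of 5.31 lay under 6. Ucp2, the mitochondrial uncoupling protein 2, rose by 0.80 and Upp1, uridine phosphorylase, by 0.62. St6galnac2, a sialyltransferase, rose by 0.93 (adjusted p = 0.00180) and Galnt3, which starts O-linked glycans, by 0.64 (adjusted p = 0.0486). Padi2, which converts arginine in proteins to citrulline, rose by 0.73. RT1-CE5, an MHC class I gene with close relatives in its cluster, rose by 0.53 (adjusted p = 0.0341). The membrane proteins Plp2, Tmem43, Tmem171 and Vopp1 rose by 0.75, 0.61, 0.64 and 0.63. Of the clusters without a gene symbol, 10865905 had the largest change, log2 fold change 1.95, standard error 0.204, adjusted p = 0.00124, and 10918276 was the only one that fell (-0.86, adjusted p = 0.0392).

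In all, 42 of the 72 called genes belonged to at least 1 of 53 gene lists and 30 to none. Of the lists, 24 held a called gene and 29 did not. Proximal tubule markers had no call among 27, a median of -0.13 with 20 negative, and 0.024 without animal 19. Slc22a2, an organic cation transporter of that segment, had the largest change (-0.85, adjusted p = 0.278). Podocyte and glomerular genes, 14 in all, stayed between -0.32 and 0.16, with Nphs1, nephrin, at -0.32, adjusted p = 0.616. Oxidative phosphorylation had 38 genes with changes between -0.21 and 0.077 and a median of -0.072. Fatty acid oxidation genes, 30, had a median of 0.012, and 27 antioxidant genes -0.026. At an unadjusted p under 0.05 the counts higher and lower were 0 and 2 for proximal tubule, 0 and 0 for oxidative phosphorylation and 1 and 0 for fatty acid oxidation.

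Lithium inhibits inositol monophosphatase and glycogen synthase kinase 3 directly. Of 16 genes of lithium target enzymes and inositol metabolism, none was called by limma, 2 had a higher level and 0 a lower one when p was left unadjusted, at the same threshold, and the median was 0.025. Slc5a3, the sodium-dependent inositol transporter, had 0.70, adjusted p = 0.418 and Isyna1, inositol phosphate synthase, 0.38, adjusted p = 0.240. Unfolded protein and integrated stress response genes had 21 of 22 positive changes, a median of 0.18 and no call by limma, against 7 higher at an unadjusted p under 0.05 and 3 higher without scan groups, with Pdia4, a protein disulphide isomerase, at 0.41, adjusted p = 0.0766 and Hspa5, the chaperone BiP, at 0.30, adjusted p = 0.399. Without animal 19, 22 of 22 were positive with a median of 0.17. Over all named genes, 4570 of 8300 changes were positive with that animal and 4982 without it. In the list of amino acid metabolism, Prodh, proline dehydrogenase, came closest to the threshold (0.80, adjusted p = 0.0593).

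**Figure D3:**
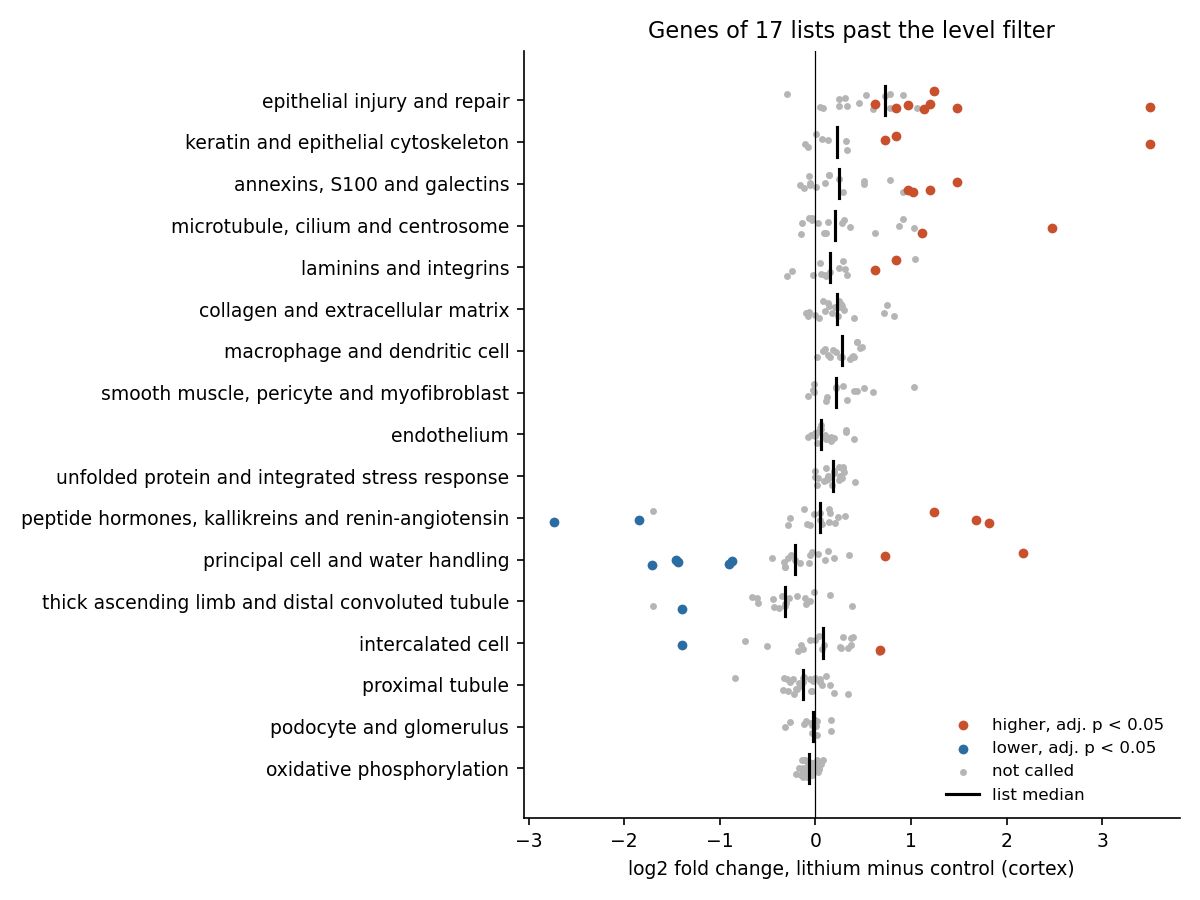
Log2 fold change (lithium minus control) of every gene past the filter in 17 of the gene lists, 1 point per gene, with called genes in orange (higher) and blue (lower) and the median as a black line. Injury genes lie mostly right of 0 with a median of 0.72, principal cell genes hold calls on both sides, and oxidative phosphorylation genes all lie close to 0.

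Markers of macrophages, smooth muscle and adipocytes were not called by limma but were high on 1 array. At an unadjusted p under 0.05, the numbers higher were 2 of 17, 2 of 15 and 1 of 6, and none was lower. Among the 8300 named genes, 417 were higher and 224 lower at that threshold. All 17 macrophage and dendritic cell markers past the filter had positive changes, with a median of 0.28, Cd14 at 0.49, adjusted p = 0.624 and Csf1r at 0.46, adjusted p = 0.737. Over the 21 named markers of the list, mean levels ran from 6.17 to 6.76 in controls and from 6.33 to 7.72 under lithium, the highest value being that of animal 19. Without that animal, 9 of 17 were positive and the median was 0.021. Among all 8300 named genes, 4570 were positive with animal 19 and 4982 without it. Smooth muscle, pericyte and myofibroblast markers had a median of 0.22 with it and -0.058 without it. The adipocyte list of 12 named markers had mean levels from 5.0 to 6.17 in controls, and 8.52 in animal 19. On that array Ucp1, the uncoupling protein of brown fat, read 9.67 against 2.85 to 4.87 on the other lithium arrays and 3.00 to 4.77 on controls. Adipoq, adiponectin, read 10.4 there, 6.93 to 7.70 on the other lithium arrays and 5.33 to 6.91 on controls (1.81, adjusted p = 0.389, and 1.12 with adjusted p = 0.0118 without animal 19). Of the other adipocyte markers, Plin1, perilipin, read 8.83 on that array, 5.18 to 6.11 on the other lithium arrays and 4.90 to 6.19 on controls.

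That array's share in the called clusters was measured by leaving it out. Of the 79 clusters, 70 remained called, and the counts were 74 higher and 18 lower. Calls lost were Scnn1b, Nabp1, Dstn, Lbh, Upp1, Kcnk1 and 3 clusters without a symbol, with adjusted p-values between 0.0552 and 0.0704. Another cluster of Lbh was gained (0.61, adjusted p = 0.0283). Among the 22 clusters gained were Kit, Itgb4, Adipoq, Prodh and Alox15b, a lipoxygenase (1.14, adjusted p = 0.0294), which were higher, and Sfrp2 and Lpl, lipoprotein lipase (-0.74, adjusted p = 0.0105), which were lower. Alox15b and Lpl were chosen after their values were seen. Thin limb and papilla markers, of which 18 were named, ran from 5.90 to 6.13 in controls and from 6.10 to 6.46 under lithium on the mean log2 scale, and 9 of these 18 did not pass the filter. All 9 that passed had positive changes, with a median of 0.32 that was 0.18 without animal 19, when 8 were positive. Cldn4 was the only one of that list called. The part of these markers in the results was not tested.

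**Figure D4:**
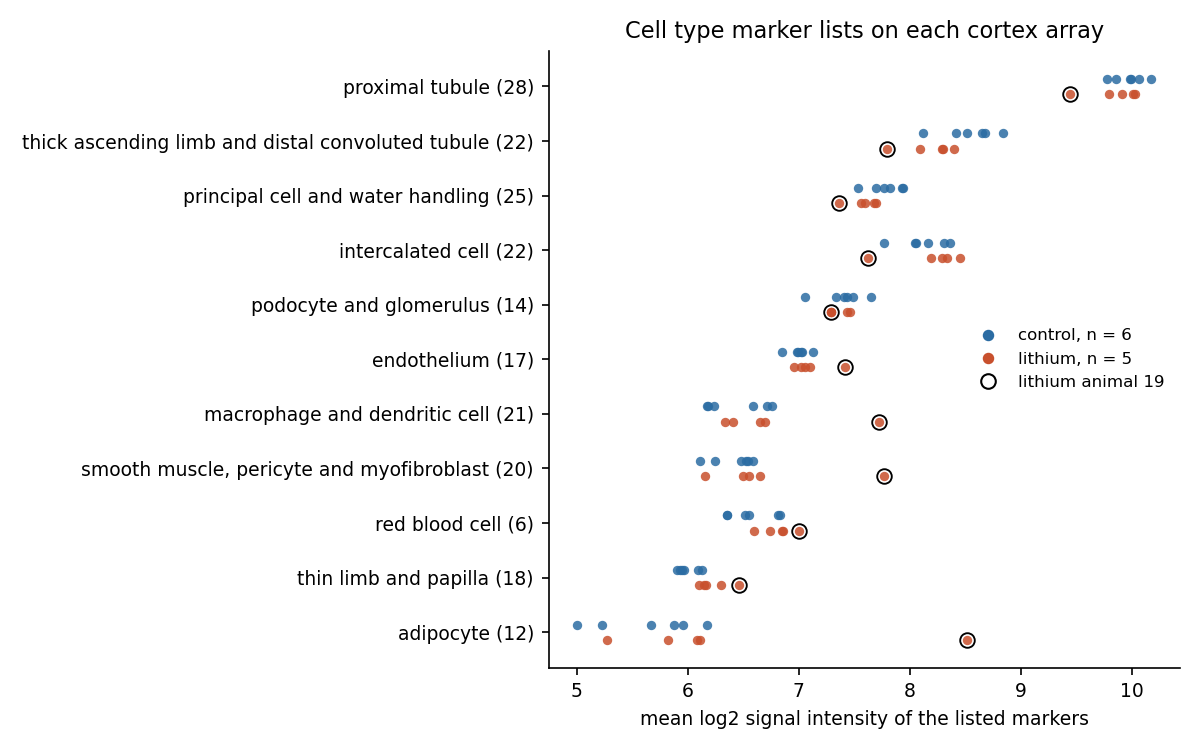
Mean log2 signal intensity of cell type marker lists (number of named markers in brackets) on each of 6 control (blue) and 5 lithium (orange) cortex arrays. The circled array of lithium animal 19 lies at 8.52 for adipocyte markers, where all other arrays lie at or below 6.17, and is also the highest for macrophage and smooth muscle markers and the lowest for proximal tubule markers.

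Several called genes are neighbours in the genome. In RefSeq order, 7 pairs of called genes had at most 4 protein-coding genes between them. No such count was made for other sets of genes, so whether this number is high was not tested. Scnn1g and Scnn1b, Defb11 and Defb9, Guca2a and Guca2b, and Krt8 and Krt18 had none between, and Klk1 and Klk1b3 had 3. The genes of each of these 5 pairs belong to 1 family and changed in the same direction. For Krt18 the direction is that of its called cluster, while the other cluster did not pass the test (0.33, adjusted p = 0.760). Tppp3 rose and Hsd11b2 fell with 1 gene between them, and St14 rose and Tmem45b fell with 4 between.

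Medulla of the same animals was compared for the clusters of the cortex filter, of which 1.07% were called there. Of the 79 clusters called in cortex, 65 had the same sign in medulla and 19 were called in the same direction, 17 higher and 2 lower. Those lower in both were Klk1b3 (medulla -1.63) and Cyp24a1 (-1.22). Higher in both were Krt19 (medulla 2.65), Tppp3 (3.40), Ccn3 (4.0), Mmp2 (2.17), Gabrp (2.39), Cdkn1a (1.96), Guca2b (1.53), Pdlim1, Crip1, Cd44, Dkk3, Tagln2 and 5 clusters without a symbol. The median medulla change of the 64 higher clusters was 0.62, against 0.84 in cortex. For the 15 lower clusters it was -0.0046, against -1.42 in cortex, 9 of the 15 had the same sign, and 12 of the 15 passed the level filter in medulla.

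The difference of the lithium effect between the tissues was tested itself, as an interaction over all 24 arrays. The cortex array of animal 17, alone in its scan group, adds nothing to that estimate either. The test passed for 13 clusters, 0.0944% of those tested, 1 with the higher value in cortex (0.00726%) and 12 with the lower (0.0872%). Kcne1 fell in cortex and was not called in medulla (cortex -1.70, medulla 0.15, difference -1.86, adjusted p = 0.00104). Defb11 had the largest difference (-1.94 in cortex and 0.37 in medulla, adjusted p of the difference 0.000336). In medulla both genes lay under 6 on either diet, with control and lithium means of 4.32 and 4.47 for Kcne1 and 4.79 and 5.17 for Defb11, and failed the level filter there, so that a fall like that in cortex could not have been measured. With the animal as a block, these 2 stayed called (adjusted p = 0.0082 and 0.00375 in turn). Slc8a1 (cortex -1.40, medulla 0.46, adjusted p = 0.00961), Ccn3 with its larger rise in medulla (adjusted p = 0.0419) and Anxa5 (cortex 1.02, medulla -0.58, adjusted p = 0.0234) passed too. With the block their adjusted p-values were 0.206, 0.17 and 0.109. For Aqp2 the difference did not pass (-1.46 in cortex, -0.60 in medulla, adjusted p = 0.326), nor for Aqp4 (2.17 and 0.53, adjusted p = 0.244). Of the other clusters with a tissue difference, Trpv5 had 0.38 in cortex and 2.55 in medulla, a difference that did not pass with the block (adjusted p = 0.161), and Adm2, a peptide of the adrenomedullin family, 0.053 and 2.05, which passed (adjusted p = 0.00375).

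**Figure D5:**
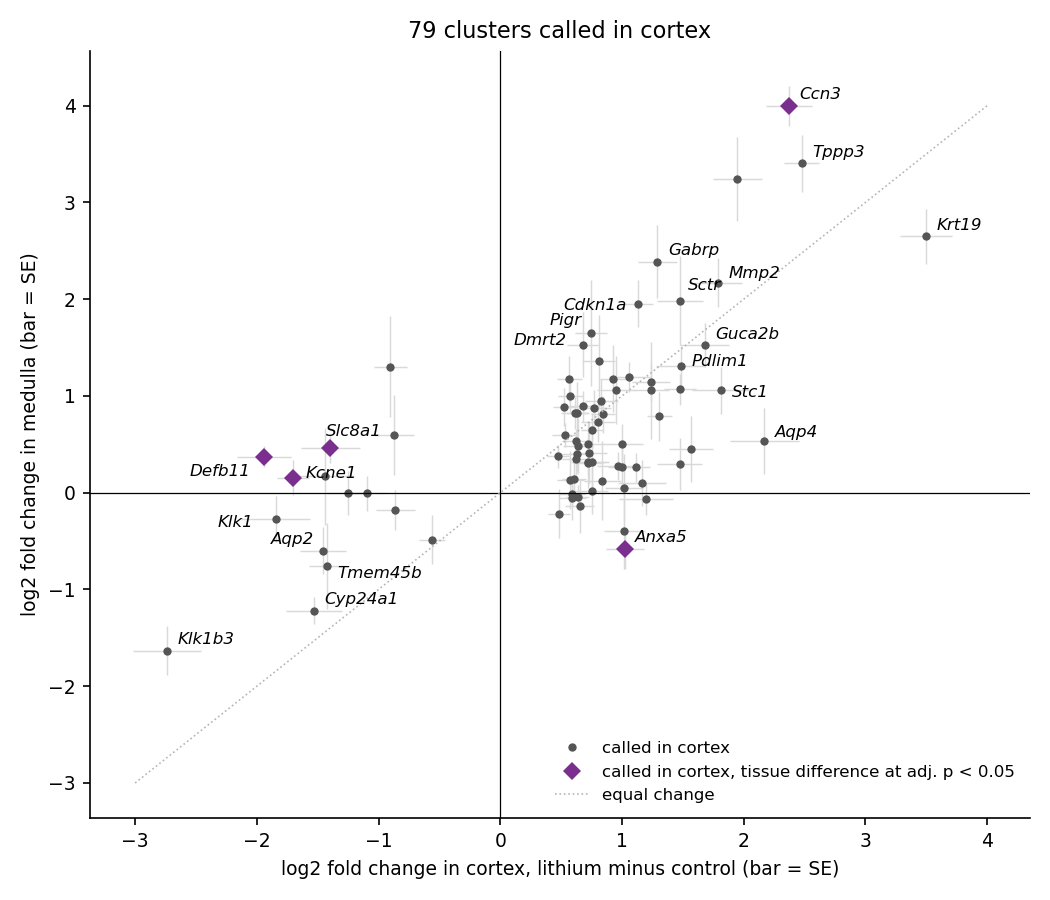
Log2 fold change (lithium minus control) in medulla against that in cortex for the 79 clusters called in cortex, with standard errors as bars and the dotted line at equal change. Most genes that rose in cortex lie above 0 in medulla too, those that fell lie on both sides of 0 there with a median of -0.0046, and the 5 diamonds (Kcne1, Defb11, Slc8a1, Ccn3 and Anxa5) passed the test of the difference between tissues.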

How the data were processed

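Affymetrix rat arrays measured cortex and medulla of 12 rats. The authors deposited log2 values of 28894 transcript clusters. In Partek they ran RMA with quantile normalization and median polish, averaged probe sets per transcript and took out the effect of scan date by ANOVA (the submitters' notes name rn4 and RMA). The labels and the methods name different array types. Because that step leaves no residual variance between scan dates, the 4 scan groups of cortex could be read back from the values. Dates themselves were not given in the sources used here. Diets were compared with limma 3.58.1 (lmFit and eBayes, R 4.3.3) on the clusters with log2 of at least 6 on at least 4 of 12 cortex arrays, with scan groups as a covariate as in the methods' 2-way ANOVA (7 residual degrees of freedom), Benjamini-Hochberg adjustment and a threshold of 0.05. The scripts were tested on simulated data. The tissue difference was an interaction over 24 arrays, of which the cortex array of animal 17 had a term of its own. As an alternative with the animal as a block, cortex minus medulla differences of 11 animals, without animal 17, were fitted with the cortex scan groups. Cortex and medulla arrays carry the number of their animal in the labels, and the correlation of their deviations from the group means ran from -0.075 to 0.43 over 11 animals.

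The platform annotation gave 1 symbol for 15097 clusters, several for 323 and no symbol for 13470. Another 4 were named from the study's tables. A gene with several clusters is given by the one with the highest mean over the cortex arrays. Promoters and gene order are from RefSeq (GRCr8), and 52 of the 72 called genes had a promoter entry. No coordinates of rn4 were used. The genes, the 53 lists and the comparisons were chosen with earlier results of these data known. By the rule for named genes every called gene may be named, with its arrays for the 15 largest changes in each direction and up to 4 members of each list otherwise; Scnn1a, S100a10, Alox15b, Lpl, Thrsp, Trpv5, Atp2b4 and the single arrays of genes beyond the 15 (Guca2a, Cd44, Anxa2, Cdkn1a, Tubb2b, Elf3, Scd2, Slc25a24 and Krt8) were chosen after their values were seen. Results for some genes are not reported here. Figures were drawn with matplotlib 3.10.9 in Python 3.11.15. Alternatives left out scan groups, single arrays or the filter, repeated normalization, or used the methods' t-test and ANOVA. The number of arrays limits the precision.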

Additional observations from a re-analysis of the deposited data

Results flagged for a closer look

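For the 79 called clusters and the other cluster of Krt18, 160 groups of 5 or 6 arrays were screened for 1 array far from the others of its diet, and 11 were found, where chance flags about 1 in 20 groups. Of these, 7 were the array of lithium animal 19. It was the highest lithium array for Lgals3 at 8.55, Cd44 at 7.12, Bace2 at 6.99, Tmem43 at 8.03, Vopp1 at 6.65 and the unnamed cluster 10865905 at 7.27, and the lowest for Galnt3 at 6.70. Control animal 1 was the lowest control for Scnn1g at 7.34 and Slc8a1 at 7.43, and the highest for Pdlim1 at 7.40. Lithium animal 22 was the highest lithium array for Kcnk1 at 8.26.

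The lithium effect differed between cortex and medulla in 13 clusters by the interaction test in limma. As cortex minus medulla on the log2 scale, the difference was -1.86 for Kcne1, -2.31 for Defb11, -1.86 for Slc8a1, -1.63 for Ccn3 and 1.60 for Anxa5, which were all called in cortex. It was -1.23 for Atp2b4, a plasma membrane calcium pump, -1.74 for Ccl28, a mucosal chemokine, -2.17 for Trpv5, -1.35 for Nt5c1a, a nucleotidase, -1.09 for Heyl, a target of Notch, and -1.998 for Adm2, none of them called in cortex. The unnamed clusters 10801411 and 10828665 had -1.75 and -1.49. With the animal as a block 5 of the 13 stayed called, namely Kcne1, Defb11, Ccl28, Adm2 and cluster 10828665, while the adjusted p was between 0.0797 and 0.209 for the other 8. Kcne1 and Defb11 lay under 6 in medulla on both diets.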

How the results depend on the processing

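No called gene and no gene with a tissue difference changed direction under any alternative. The cortex counts, 64 higher and 15 lower, were 207 and 81 without scan groups in the fit, and 112 and 40 when the array of animal 17 was left out as well. The 2-way ANOVA of the methods gave 11 and 3 after Benjamini-Hochberg adjustment and 107 and 36 at an unadjusted p under 0.05 with a fold change over 1.5. The methods' t-test gave 212 and 84 after adjustment and 122 and 41 at that threshold. Leaving out 1 array at a time, there were between 24 and 74 higher and between 8 and 23 lower clusters, and between 9 and 45 of the 79 calls were lost without an array other than that of animal 17, which has no effect on the fit. The higher count moved by more than 1.5 times without control animals 15 (27), 16 (30), 29 (32) and 30 (28) and without lithium animals 6 (39), 18 (42), 21 (29) and 22 (24), and the lower count without control animals 1 (23), 15 (8) and 30 (9) and lithium animal 21 (8). Centring the arrays, repeating quantile normalization, another filter or none, and a trended robust variance gave between 44 and 67 higher and between 12 and 16 lower. The tissue difference, 1 higher and 12 lower, was 167 and 116 without scan groups, and 0 and 5 with the animal as a replicate block (984 and 645 at an unadjusted p under 0.05). Leaving out 1 animal at a time, it was between 0 and 17 higher and between 6 and 26 lower, the most without animal 6. The cause of these shifts was not tested. Signal near background limits the 19 clusters whose control mean lay under 6. It also limits the 3 lower clusters whose lithium mean lay under 6, Kcne1, Defb11 and Defb9.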
